A study of Oryza sativa with 18 samples.

Results

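The plasma membrane intrinsic proteins (PIPs) of rice are described here across root libraries made after treatment with 2,4-D, a synthetic auxin, or after mock treatment. The members were 10 loci, PIP1-1 to PIP1-3 and PIP2-1 to PIP2-7 (OsPIP1;1 and so on in the other usual spelling), defined by locus identifier, among the 56508 loci of the count table. They held 16 of its 66860 transcripts, and the counts of the isoforms of a locus were summed. Every plant was wild-type Oryza sativa cv. Nipponbare grown on low-nitrogen Fahraeus medium, and each was soaked for 1 h as a 7 day-old seedling. The soak held 50 µM 2,4-D for the treated roots and no 2,4-D for the mock roots. Roots were collected 1, 7 and 14 days after the soak (dpt), in 3 biological replicates per treatment and day, which makes 18 libraries. At 7 and 14 dpt the 2,4-D RNA came only from roots that carried nodule-like structures (NLS), whereas the 2,4-D roots of 1 dpt and all mock roots are labelled as having none, so 2,4-D exposure and selection for NLS cannot be told apart at the later times. By the labels, the 7 and 14 dpt libraries belonged to one sequencing batch and the 1 dpt libraries to another.

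Aquaporins are channels that let water cross membranes, and the PIPs are the family that sits mainly in the plasma membrane. Members of the PIP2 group generally conduct water strongly when expressed alone, whereas many PIP1 proteins need a PIP2 partner in a mixed tetramer to reach the membrane and to be active. In rice roots PIPs are known from the cell layers that water crosses on its way to the xylem, and their transcripts are known to respond to hormones, water status and time of day.

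Library totals ran from 9416952 to 18057748 counts, and levels are given as CPM (the count scaled to library size) on a scale shared by the 18 libraries. In edgeR's quasi-likelihood test a locus was called if it differed at least 2-fold (1 on the log2 scale) with an adjusted p (Benjamini-Hochberg) below 0.05. Loci entered a test if 2 or more of the compared libraries reached 10 CPM. The first principal component separated 2,4-D from mock libraries at each time, and replicate 3 at 1 and 7 dpt and replicate 2 at 14 dpt were the 2,4-D libraries closest to the mock side. The GH3 genes, which encode enzymes that conjugate auxin, summed to 584 to 3070 CPM in the 9 2,4-D libraries, against 90.1 to 184 CPM in the 9 mock libraries, and of the 5 (chosen by the study on the 7 dpt libraries) 5, 5 and 3 were called higher at 1, 7 and 14 dpt. A list of 3 root markers summed to 418 to 2803 CPM in 2,4-D roots and to 2115 to 5146 CPM in mock roots, with 0, 1 and 0 of the 3 called lower at 1, 7 and 14 dpt and 0 higher. A list of 7 leaf photosynthesis loci summed to 4.66 to 199 CPM in 2,4-D roots and to 15.2 to 462 CPM in mock roots, and 3 of the 7 reached the filter, of which 0, 0 and 2 were called lower at these times and 0 higher. The names of the leaf loci and of 2 of the root markers are general knowledge and are not annotated in the sources used here. The remaining root marker is the aquaporin NIP2-1, which the study chose on the 7 dpt libraries. It is also in the list of other aquaporins below, so these lists are not independent.

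The summed level of the PIP family was lower in 2,4-D roots than in mock roots at each time, and most of its counts came from PIP1-2. Neither sum nor share was tested. The 10 loci summed to 2066, 1696 and 1470 CPM in 2,4-D replicates 1, 2 and 3 at 1 dpt, against 4970, 5068 and 4407 CPM in the mock replicates. The sum was 1312, 1919 and 2091 CPM in 2,4-D roots and 4102, 3997 and 5284 CPM in mock roots at 7 dpt. At 14 dpt it was 1498, 2911 and 3374 CPM in 2,4-D roots and 3478, 4963 and 4999 CPM in mock roots. The groups did not overlap at any time, although the highest 2,4-D library of 14 dpt came close to the lowest mock library. The group mean in 2,4-D roots was 36.2% of the mock mean at 1 dpt, 39.8% at 7 dpt and 57.9% at 14 dpt. In shares of all counts, the family took 0.134% to 0.340% in 2,4-D libraries and 0.343% to 0.507% in mock libraries. These sums are of reads without a correction for transcript length, so they weigh longer transcripts more. The counts of PIP1-1, PIP2-1 and PIP2-2 may cover only part of their reads, as set out below. The family sums and the shares of its members may therefore be incomplete.

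**Figure D1:**
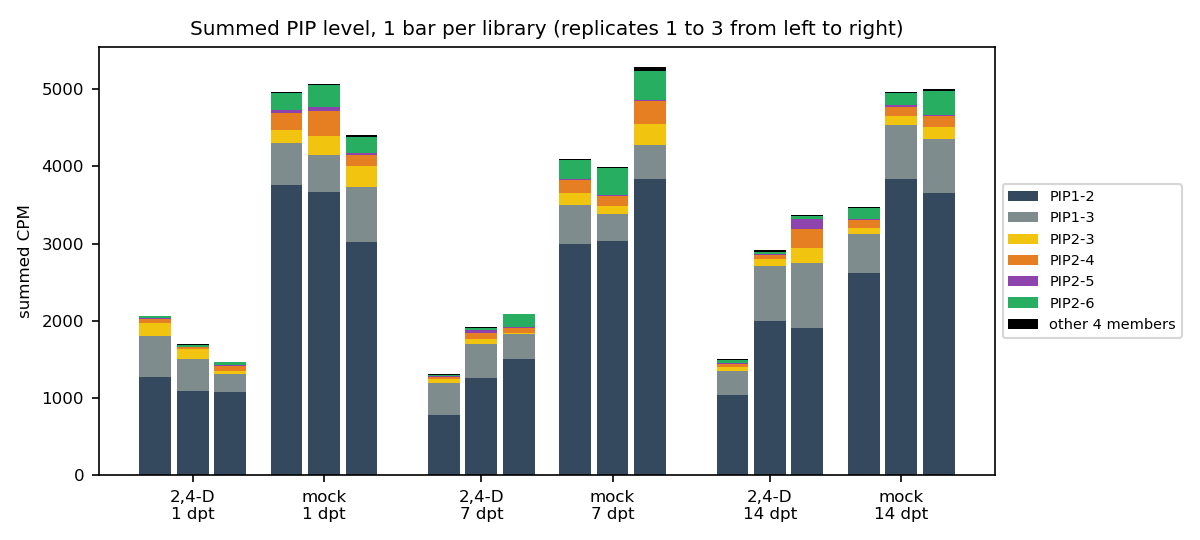
Summed CPM of the 10 PIP loci, with 1 bar per library and replicates 1 to 3 from left to right within each treatment and time, divided by member. The 2,4-D bars lie between 1312 and 3374 CPM and the mock bars between 3478 and 5284 CPM, and PIP1-2 makes up most of every bar.

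Between libraries the mixture shifted as well as the sum. PIP1-3 made up 15.6% to 31.1% of the summed level in the 2,4-D libraries (median 24.3%, n = 9) and 8.34% to 16.1% in the mock libraries (median 12.2%, n = 9). PIP1-2 made up 56.7% to 72.8% in 2,4-D libraries and 68.5% to 77.2% in mock libraries. The 7 PIP2 loci together made up 6.67% to 18.4% in 2,4-D libraries and 8.40% to 18.6% in mock libraries, so their share overlapped over most of its range.

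At 1 dpt, 6 of the 10 members reached the filter, and 4 of them were called lower in 2,4-D roots, namely PIP1-2, PIP2-4, PIP2-5 and PIP2-6. Of the 13483 loci tested at this time, 8.68% were called lower and 5.24% higher. At 7 dpt 8 members were tested and only PIP1-2 was called lower, where 6.10% of 13780 loci were called lower and 5.12% higher. At 14 dpt 7 members were tested and only PIP2-6 was called lower, where 5.20% of 13664 loci were called lower and 3.11% higher. No member was called higher at any time by edgeR, limma-voom or DESeq2, but DESeq2 gave PIP2-5 no adjusted p at 14 dpt. The members at an unadjusted p under 0.05 in edgeR numbered 4 at 1 dpt, 5 at 7 dpt and 2 at 14 dpt, and each of these was lower in 2,4-D roots. Over all loci, in either direction, 4414 of 13483, 4334 of 13780 and 3943 of 13664 reached this level at these times. At 14 dpt the share among the 7 members tested was thus close to that of all loci. The median log2 fold change of the members tested was -1.98 at 1 dpt, -1.46 at 7 dpt and -0.13 at 14 dpt, against medians over all loci tested of 0.00496, -0.0227 and -0.00482.

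All 2,4-D libraries lay below all mock libraries for 5 of the 6 members tested at 1 dpt, 4 of the 8 tested at 7 dpt and 2 of the 7 tested at 14 dpt. Over all loci tested this held for 21.2% at 1 dpt, 19.4% at 7 dpt and 19.8% at 14 dpt. No member had all 2,4-D libraries above all mock libraries at any time. With 3 libraries against 3, an exact permutation test of a single locus cannot give a p below 0.1, so the calls rest on the spread that edgeR estimates across loci. Since these are bulk roots, fewer cells of a type and less RNA per cell cannot be told apart.

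**Figure D2:**
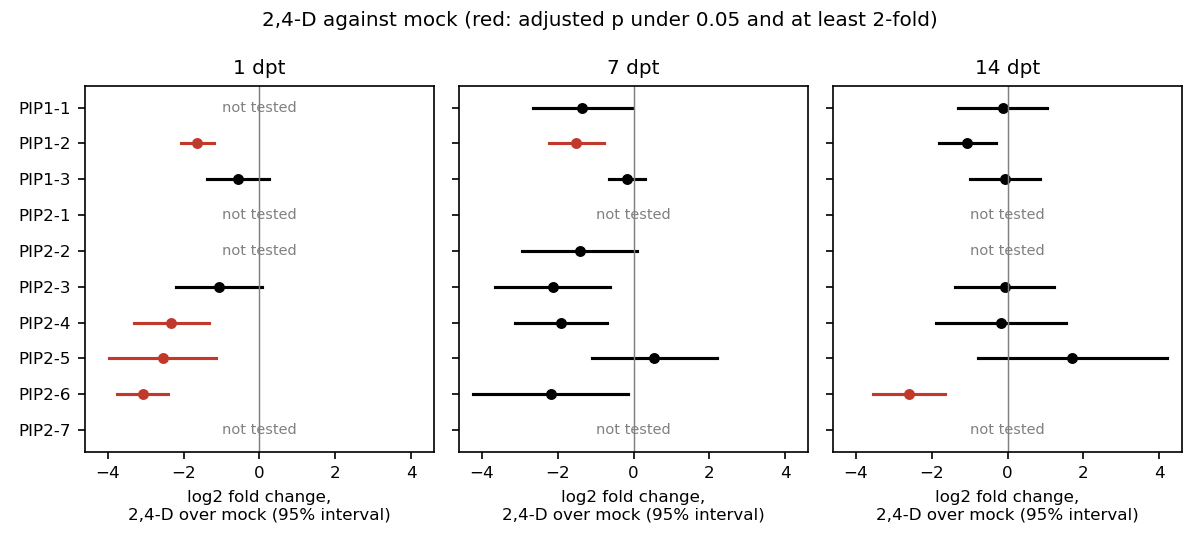
Log2 fold change of 2,4-D over mock roots with its 95% interval for each member tested at 1, 7 and 14 dpt, with the calls in red. The 4 calls of 1 dpt lie between -3.08 and -1.64, and PIP2-5 is the only member with values on both sides of 0, at -2.55 at 1 dpt and 1.70 at 14 dpt.

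Among the PIP1 genes, PIP1-2 (LOC_Os04g47220) drew the most reads of the family, 579251 counts over the 18 libraries. Its product has been linked to carbon dioxide movement in rice leaves. In 2,4-D replicates 1, 2 and 3 of 1 dpt it was at 1268, 1087 and 1070 CPM, against 3757, 3664 and 3017 CPM in the mock libraries. Each 2,4-D library was below every mock library, and the log2 fold change was -1.64 (SE 0.185, edgeR adjusted p = 0.00383), which is 0.322 of the mock level. The call remained when any 1 library was left out (adjusted p 0.00317 to 0.0280).

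At 7 dpt PIP1-2 was at 784, 1259 and 1505 CPM in 2,4-D roots and at 2999, 3032 and 3835 CPM in mock roots. The groups again did not overlap, 2,4-D replicate 1 was the lowest library of the 18, and the log2 fold change was -1.51 (SE 0.299, edgeR adjusted p = 0.0265). This call was lost without 2,4-D replicate 1 (adjusted p = 0.0800) or 2 (0.0885) and without mock replicate 1 (0.0669), 2 (0.0592) or 3 (0.0511). The log2 fold changes lay between -1.73 and -1.27 over the 6 fits. Without 2,4-D replicate 1, 373 of 13475 loci were called, against 1547 of 13780 in the main fit. At 14 dpt the levels of PIP1-2 were 1042, 2002 and 1912 CPM in 2,4-D roots and 2621, 3833 and 3659 CPM in mock roots. All 2,4-D libraries lay below all mock libraries, and the log2 fold change of -1.06 (95% interval -1.82 to -0.30) had an edgeR adjusted p of 0.0832. DESeq2 called PIP1-2 at this time with an adjusted p of 0.0113, as did edgeR in one fit of all 18 libraries (0.0143). Leaving out 1 library gave 0 calls (edgeR adjusted p 0.0901 to 0.1985). Over all times the 9 2,4-D libraries lay between 784 and 2002 CPM and the 9 mock libraries between 2621 and 3835 CPM.

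PIP1-3 (LOC_Os02g57720), also known as RWC3 and studied for its part in drought avoidance, did not pass the test at any time. It stood at 535, 420 and 236 CPM in 2,4-D roots and at 545, 482 and 710 CPM in mock roots at 1 dpt. At 7 dpt the levels were 408, 442 and 327 CPM in 2,4-D roots and 501, 351 and 441 CPM in mock roots. At 14 dpt they were 308, 708 and 830 CPM in 2,4-D roots and 498, 708 and 701 CPM in mock roots. The groups overlapped at each time, with 2,4-D replicate 3 the lowest library at 1 dpt and the highest at 14 dpt. The log2 fold changes were -0.57 (95% interval -1.39 to 0.24) at 1 dpt, -0.17 (-0.64 to 0.30) at 7 dpt and -0.08 (-0.999 to 0.844) at 14 dpt. At 7 dpt the interval left out a 2-fold change in either direction, and at 14 dpt it did so only just.

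Within each library the count of PIP1-3 can be set against that of PIP1-2, a ratio that does not depend on the scaling between libraries. It was 42.2%, 38.7% and 22.1% in the 2,4-D replicates of 1 dpt, against 14.5%, 13.2% and 23.5% in the mock replicates. At 7 dpt it was 52.1%, 35.1% and 21.7% in 2,4-D roots and 16.7%, 11.6% and 11.5% in mock roots, and at 14 dpt 29.6%, 35.4% and 43.4% in 2,4-D roots and 19.0%, 18.5% and 19.2% in mock roots. The groups overlapped at 1 dpt through 2,4-D replicate 3 and mock replicate 3, and did not overlap at 7 and 14 dpt. The ratio was chosen after the values were seen and was not tested.

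PIP1-1 (LOC_Os02g44630), a PIP1 known for weak water transport when expressed alone, drew 1920 counts in all and was close to the filter. It stood at 3.72, 3.58 and 2.99 CPM in 2,4-D roots of 1 dpt, against 7.18, 7.08 and 10.4 CPM in mock roots. All 2,4-D libraries were lower, but the locus missed the filter of 10 CPM there. With the filter at 1 CPM, its log2 fold change was -1.28 with an edgeR adjusted p of 0.0189 and it became a call too. Its levels at 7 dpt were 4.94, 7.47 and 4.84 CPM in 2,4-D roots and 10.5, 6.94 and 25.8 CPM in mock roots. The groups overlapped through mock replicate 2, and the log2 fold change was -1.36 (edgeR adjusted p = 0.147). At 14 dpt the log2 fold change was -0.13 (adjusted p = 0.890).

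**Figure D3:**
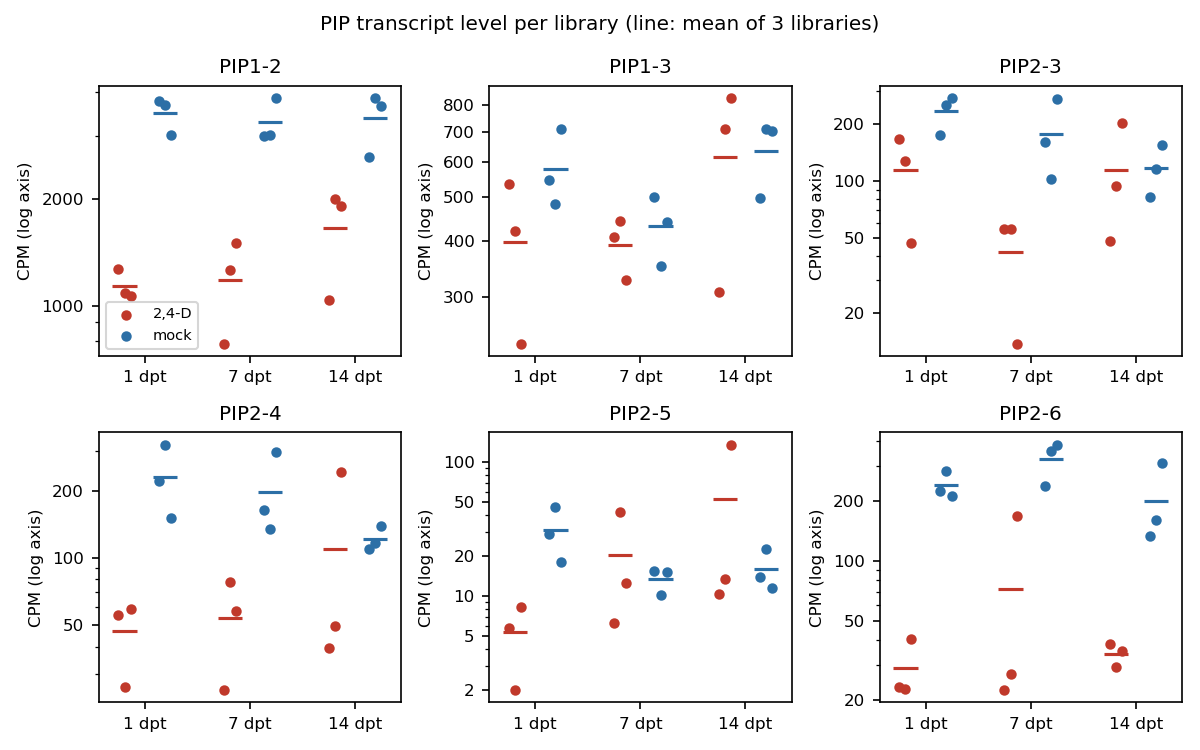
CPM of 6 PIP loci in each library on log axes, with 2,4-D left of mock at 1, 7 and 14 dpt and a line at the mean of the 3 libraries. PIP1-2 and PIP2-6 do not overlap between treatments at any time, PIP1-3 overlaps at every time, and PIP2-4 and PIP2-5 each have a high 2,4-D library at 14 dpt (241 and 134 CPM).

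Among the PIP2 genes, PIP2-6 (LOC_Os04g16450) was called lower at 1 and at 14 dpt. Its product is known to pass arsenite as well as water in frog oocytes. It stood at 23.3, 22.7 and 40.5 CPM in 2,4-D roots of 1 dpt, against 224, 282 and 212 CPM in mock roots. The groups lay far apart, and the log2 fold change was -3.08 (SE 0.279, edgeR adjusted p = 0.00276), which is 0.118 of the mock level and lower than that of all but 1.82% of the loci tested. The call held when any 1 library was left out (adjusted p 0.00282 to 0.0143) and in the other settings tried at this time.

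At 7 dpt PIP2-6 was at 22.4, 26.9 and 168 CPM in 2,4-D replicates 1, 2 and 3, against 238, 356 and 383 CPM in the mock replicates. Replicate 3 was by far the highest of the 2,4-D libraries, yet still below every mock library, and the log2 fold change of -2.19 (SE 0.840) had an edgeR adjusted p of 0.138. DESeq2 called it (adjusted p = 0.0176), as did edgeR in one fit of all 18 libraries (0.0219). Limma-voom (0.0605) and edgeR with a replicate block (0.0990) did not call it. Without 2,4-D replicate 3 the log2 fold change was -3.76 with an edgeR adjusted p of 0.00489. A list of 7 xylem and secondary wall genes, which the study chose on the 7 dpt libraries, summed to 85.1, 53.8 and 361 CPM in the same 2,4-D replicates and to 1813, 1741 and 928 CPM in the mock replicates, so its highest 2,4-D library was also replicate 3. Among the mock replicates, replicate 3 had the lowest sum of this list but the highest PIP2-6 level. The leaf photosynthesis list was also highest in 2,4-D replicate 3, at 10.5, 61.7 and 199 CPM in 2,4-D replicates 1, 2 and 3. Of the xylem and secondary wall list 6 of 6 tested were called lower at 1 dpt, 3 of 7 at 7 dpt and 7 of 7 at 14 dpt. Over all times its sum ran from 47.1 to 361 CPM in 2,4-D libraries and from 842 to 1813 CPM in mock libraries, and its part in the PIP values was not tested.

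At 14 dpt PIP2-6 was at 38.3, 29.1 and 35.0 CPM in 2,4-D roots and at 134, 160 and 309 CPM in mock roots. The 2,4-D libraries lay close together and below all mock libraries, and the log2 fold change was -2.60 (SE 0.387, edgeR adjusted p = 0.0208). The call was lost without 2,4-D replicate 1 (adjusted p = 0.0803) or 3 (0.0668) and without mock replicate 1 (0.0517), although the log2 fold change kept within -2.83 to -2.11. The loci called in these fits numbered 14 of 13347 without 2,4-D replicate 1, 335 of 13350 without 2,4-D replicate 3 and 25 of 13367 without mock replicate 1.

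PIP2-4 (LOC_Os07g26630) and PIP2-5 (LOC_Os07g26660) lie near each other on chromosome 7, as does PIP2-1. In the RefSeq annotation of rice (assembly ASM3414082v1), 1 gene stood between PIP2-4 and PIP2-5 and 0 between PIP2-5 and PIP2-1. A further gene that RefSeq names PIP2-8 was not among the members. PIP2-5 is known as a PIP expressed mainly in roots. Reads of such similar neighbours can be exchanged or dropped in counting, and how the authors' counting treated them is not given in the sources. The separate values of these genes are therefore uncertain.

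At 1 dpt PIP2-4 stood at 55.4, 26.4 and 59.1 CPM in 2,4-D roots and at 221, 321 and 150 CPM in mock roots. The groups did not overlap, and the log2 fold change was -2.32 (SE 0.406, edgeR adjusted p = 0.0143). It was called in 5 of the 6 fits that left out 1 library, and not without mock replicate 1 (adjusted p = 0.0528). At 7 dpt it was at 25.5, 77.8 and 57.7 CPM in 2,4-D roots and at 163, 134 and 297 CPM in mock roots, again without overlap. The log2 fold change of -1.92 (SE 0.495) had an edgeR adjusted p of 0.0536, just over the threshold. PIP2-4 was called here by limma-voom (0.0465), DESeq2 (9.15e-04) and edgeR with the filter at 1 CPM (0.0498) or in one fit of all 18 libraries (0.0467). It was not called by edgeR with library sizes alone (0.0540), no filter (0.0684), first isoforms alone (0.0516) or a replicate block (0.101). Leaving out 1 library gave 0 calls (edgeR adjusted p 0.0692 to 0.115). At 14 dpt the levels were 39.2, 49.6 and 241 CPM in 2,4-D roots and 109, 116 and 138 CPM in mock roots. Replicate 3 was above all mock libraries and replicates 1 and 2 were below them all. The log2 fold change was -0.18 (95% interval -1.89 to 1.54, edgeR adjusted p = 0.896), and without 2,4-D replicate 3 it was -1.47 (adjusted p = 0.0456).

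PIP2-5 stood at 5.81, 1.99 and 8.35 CPM in 2,4-D roots of 1 dpt, against 29.1, 45.9 and 18.0 CPM in mock roots. All 2,4-D libraries were lower, and the log2 fold change was -2.55 (SE 0.579, edgeR adjusted p = 0.0306). This was the least stable of the calls at 1 dpt. It was lost without 2,4-D replicate 1 (adjusted p = 0.100) or 2 (0.0516), without mock replicate 1 (0.0922) or 2 (0.0988) and in one fit of all 18 libraries (0.0787). The loci called in these fits numbered, in this order, 1144 of 13198, 1072 of 13175, 941 of 13204, 1032 of 13205 and 1842 of 15132. In the main fit they numbered 1876 of 13483. In the 7 dpt libraries PIP2-5 was at 6.28, 42.0 and 12.6 CPM in 2,4-D roots and at 15.4, 10.1 and 15.0 CPM in mock roots. There 2,4-D replicate 2 was the highest and replicate 1 the lowest of the 6. The log2 fold change was 0.55 (95% interval -1.11 to 2.21, edgeR adjusted p = 0.625), and without 2,4-D replicate 2 it was -0.53. At 14 dpt the levels were 10.3, 13.4 and 134 CPM in 2,4-D roots and 13.9, 22.5 and 11.6 CPM in mock roots. Only replicate 3 stood high, in the same library as for PIP2-4, and the log2 fold change was 1.70 (95% interval -0.79 to 4.20, adjusted p = 0.324) with it and -0.43 without it.

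The ratio of the PIP2-5 count to the PIP2-4 count within a library was also chosen after the values were seen and was not tested. At 1 dpt it was 10.5%, 7.55% and 14.1% in 2,4-D roots and 13.2%, 14.3% and 12.0% in mock roots, which overlap. At 7 dpt it was 24.6%, 54.0% and 21.8% in 2,4-D roots and 9.42%, 7.56% and 5.06% in mock roots. At 14 dpt it was 26.2%, 27.1% and 55.6% in 2,4-D roots and 12.7%, 19.4% and 8.35% in mock roots. Every 2,4-D library was above every mock library at 7 and at 14 dpt, including the libraries in which neither gene was high.

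**Figure D4:**
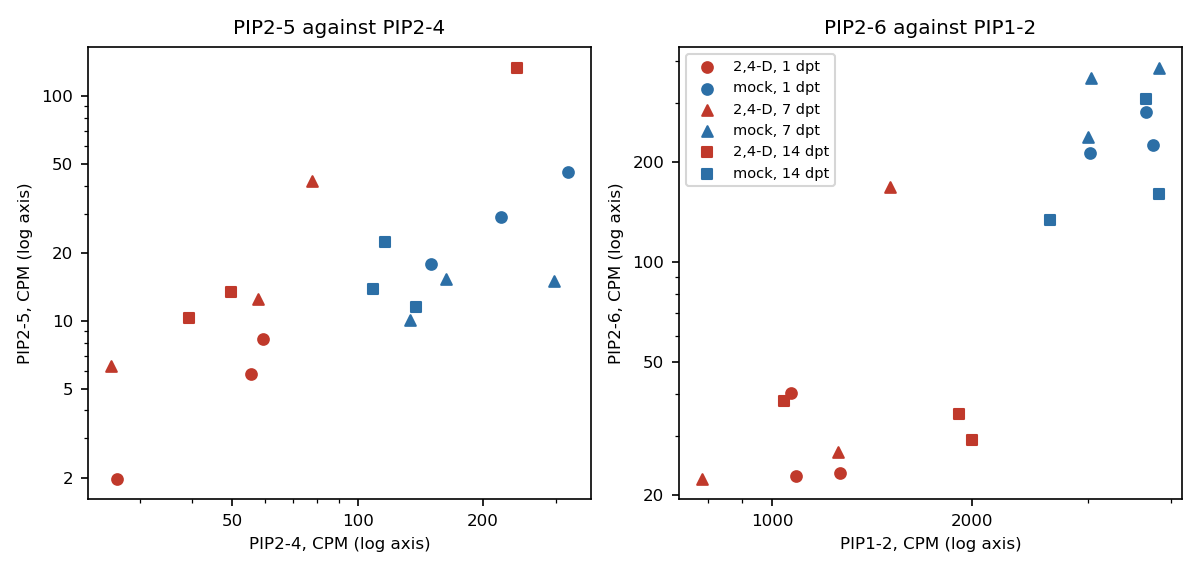
CPM of PIP2-5 against PIP2-4 (left) and of PIP2-6 against PIP1-2 (right), both axes log, with 1 point per library coloured by treatment and shaped by time. In the left panel the 2,4-D libraries of 7 and 14 dpt have more PIP2-5 relative to PIP2-4 than the mock libraries of the same time, and in the right panel 1 2,4-D library of 7 dpt (168 CPM of PIP2-6) stands nearest to the mock libraries.

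PIP2-3 (LOC_Os04g44060), like PIP2-5 known as a root-expressed PIP2, was not called by edgeR in the fits of the 6 libraries of one time. At 1 dpt it was at 167, 128 and 46.8 CPM in 2,4-D roots and at 175, 254 and 275 CPM in mock roots, with a log2 fold change of -1.07 (edgeR adjusted p = 0.175). The groups did not overlap, but 2,4-D replicate 1 came close to mock replicate 1. Its levels at 7 dpt were 55.8, 56.0 and 13.7 CPM in 2,4-D roots and 161, 102 and 272 CPM in mock roots. The groups were apart, and the log2 fold change was -2.14 (SE 0.619). The edgeR adjusted p was 0.0709, against 0.00268 with DESeq2 and 0.0286 with edgeR in one fit of all 18 libraries. PIP2-3 was not called there by limma-voom (0.0588) or by edgeR with a replicate block (0.206). Leaving out 1 library gave 0 calls (edgeR adjusted p 0.0553 to 0.160). At 14 dpt the levels were 47.9, 94.1 and 202 CPM in 2,4-D roots and 82.8, 116 and 155 CPM in mock roots. Here the groups overlapped, with 2,4-D replicate 3 the highest of the 6, and the log2 fold change was -0.08 (95% interval -1.38 to 1.23).

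In 2,4-D replicate 3 of 14 dpt, PIP2-3, PIP2-4 and PIP2-5 were thus all at their highest among the 9 2,4-D libraries, whereas PIP2-6 in that library was at 35.0 CPM, between its other 2,4-D replicates. In 2,4-D replicate 3 of 7 dpt the order was the other way round, with PIP2-3 at its lowest (13.7 CPM) and PIP2-6 at its highest (168 CPM) among the 9 2,4-D libraries. The members that were high in 2,4-D replicate 3 therefore differed between 7 and 14 dpt. In 2,4-D replicate 2 of 7 dpt, however, PIP2-4 (77.8 CPM) and PIP2-5 (42.0 CPM) were the highest of the 2,4-D libraries of that time. There PIP2-3 was at 56.0 CPM, close to the 55.8 CPM of replicate 1, and PIP2-6 was at 26.9 CPM. High PIP2-4 and PIP2-5 thus went together in a single 2,4-D library at both times.

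The remaining PIP2 genes gave few counts. PIP2-2 (LOC_Os02g41860) was at 3.77, 6.49 and 2.16 CPM in 2,4-D roots of 7 dpt and at 13.5, 4.11 and 14.6 CPM in mock roots, the only time at which it reached the filter. The groups overlapped through mock replicate 2, and the log2 fold change was -1.42 (edgeR adjusted p = 0.181). At 1 dpt, where it missed the filter, its 2,4-D libraries (6.70, 5.09 and 2.90 CPM) were all below its mock libraries (8.18, 8.21 and 13.8 CPM), and with the filter at 1 CPM it was not called (adjusted p = 0.108). PIP2-1 (LOC_Os07g26690), known in rice for its part in the water conductance of roots, had 140 counts in all and ran from 0.0796 to 1.13 CPM in 2,4-D libraries and from 0.219 to 0.917 CPM in mock libraries. PIP2-7 (LOC_Os09g36930) had 138 counts in all, from 0 to 1.58 CPM in 2,4-D libraries and from 0 to 3.67 CPM in mock libraries, with 4 of its 18 values at 0. A count of 0 in these libraries allows a level of up to 0.166 to 0.329 CPM (3 counts, counting error only). Neither PIP2-1 nor PIP2-7 reached the filter of 10 CPM at any time.

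How the isoforms were laid out in the table bears on these low values. The 7 members with a single transcript row include the 6 with the most counts. The 3 members with several rows had 0 counts in their first isoform row in every library, and all reads of PIP1-1 fell on its isoform 3, all reads of PIP2-1 on its isoform 2, and those of PIP2-2 on isoforms 3 (1326 counts), 4 (437) and 2 (5). The sources used here do not say how reads shared by isoforms were counted. The levels of PIP1-1, PIP2-1 and PIP2-2 may cover only part of their reads.

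Whether the 2,4-D effect differed between times was tested directly as an interaction over all 18 libraries, where 15132 loci and 8 members were tested. No member was called in any of these contrasts. Between 7 and 1 dpt 0.0595% of all loci were called, between 14 and 1 dpt 1.47%, and between 14 and 7 dpt 0%. At an unadjusted p under 0.05 there were 1749, 2979 and 851 loci in these contrasts, with 1, 2 and 1 members among them. For PIP2-5 the effect was higher by 4.25 on the log2 scale (SE 1.28, edgeR adjusted p = 0.0951) at 14 than at 1 dpt. DESeq2 called this difference (adjusted p = 0.00971), and so did edgeR without 2,4-D replicate 2 of 14 dpt (0.0402). Between 7 and 1 dpt the difference for PIP2-5 was 3.12 (SE 1.27, adjusted p = 0.358). For PIP2-4 the effect was higher by 2.16 at 14 than at 1 dpt (SE 0.866, adjusted p = 0.192), and for PIP2-3 by 2.06 at 14 than at 7 dpt (SE 0.855, adjusted p = 0.830). Leaving out 2,4-D replicate 3 of 14 dpt gave the lowest value of each of the differences at 14 dpt for these 3 members, 2.10 for PIP2-5 (edgeR adjusted p = 0.282), 0.85 for PIP2-4 (0.548) and 1.37 for PIP2-3 (1). For PIP1-2 the difference was 0.58 between 14 and 1 dpt (95% interval -0.23 to 1.39), and for PIP2-6 it was 0.50 (-1.28 to 2.28). The fall of PIP2-4 and PIP2-5 called at 1 dpt and not at 14 dpt is therefore not shown to differ between these times by the main test, and the contrasts with 1 dpt also cross the sequencing batches, though each effect was taken within its own batch.

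Within a treatment, levels at 14 dpt were compared with those at 7 dpt, which shared a sequencing batch. No member was called in 2,4-D roots or in mock roots, and the share of all 15132 loci called was 0% in both. By DESeq2 the number of loci called was 4 in 2,4-D roots and 18 in mock roots, with 0 members, and at an unadjusted p under 0.05 edgeR gave 727 loci in 2,4-D roots and 818 in mock roots. In 2,4-D roots PIP2-3 had a log2 fold change of 1.46 (95% interval 0.15 to 2.77, edgeR adjusted p = 0.947), which was 0.77 without 2,4-D replicate 3 of 14 dpt. For PIP2-6 it was -1.09 (-2.36 to 0.19), and it ran from -1.51 to 0.47 when 1 library was left out. In mock roots PIP1-2 had one of 0.04 (-0.54 to 0.61), an interval that left out a 2-fold change in either direction.

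Other aquaporins were counted from a list of 6 that the study's own tables annotate, among them tonoplast intrinsic proteins (TIPs), which let water into the vacuole, and NOD26-like proteins (NIPs), which include the silicon channel of rice roots. Since the study chose these genes on the 7 dpt libraries, their direction there is not independent evidence. At 1 dpt 3 of the 6 were called lower and 0 higher (median log2 fold change -1.19), at 7 dpt 2 lower and 1 higher (median -2.41), and at 14 dpt 2 lower and 0 higher (median -1.75). Their summed level ran from 442 to 1604 CPM in 2,4-D libraries and from 2005 to 3818 CPM in mock libraries. The PIP medians at the same times were -1.98, -1.46 and -0.13, and the difference between the lists was not tested.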

How the data were processed

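The authors made stranded, paired-end messenger RNA libraries. They used RSeQC to check reads, Rsubread for alignment (rice genome, MSU version 7) and featureCounts for counting. What the authors deposited are whole-number counts for each transcript, with no normalization. The strand setting of the counting is not given in the sources used here. Groups, times and replicates came from the sample labels, and 0 columns remained without a sample. Here the isoforms of each LOC_Os locus were summed, and 707 rows without a locus name, kept as they are, held 0% of counts. Tests were edgeR 4.0.16 quasi-likelihood fits (robust, TMM factors) in R 4.3.3, per time over 6 libraries or over all 18 for contrasts between times, with Benjamini-Hochberg adjustment over all loci tested. The filter and thresholds are those of the paper, whose own test was limma-voom. SE and 95% intervals come from the same fits. Printed CPM was scaled to the total over the 15132 loci that passed the filter in 18 libraries, times the TMM factor.

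Alternatives were DESeq2 1.42.0, limma-voom (limma 3.58.1), other scalings, a filter at 1 CPM or none, first isoforms alone, a replicate block, one fit of all libraries, and leaving out each library. The fits were tested on simulated data. No replicate pair agreed within sampling noise (chi-square per degree of freedom 8.47 to 109). The members, lists and the rule for naming genes (all members, and at most 3 of each other list) were chosen with earlier results of these data known. RefSeq names matched 10 of 10 members, each on the chromosome of its locus identifier. No sequence or length was used here, and shares and ratios between members are of reads, not corrected for length. Figures were drawn with matplotlib 3.10.9.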

Additional observations from a re-analysis of the deposited data

How the results depend on the processing

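At 1 dpt the count of PIP members called lower was 4 in the main fit and 1 to 5 over 11 other settings, with 2 to 4 when 1 library was left out. At 7 dpt it was 1 in the main fit, 4 with DESeq2, 2 with limma-voom under TMM factors, 2 with limma-voom on library sizes, 2 with the filter at 1 CPM and 4 in one fit of all 18 libraries, and 0 to 2 when 1 library was left out. It was 0 there without any one of 2,4-D replicates 1 and 2 or the mock replicates, and 2 without 2,4-D replicate 3. At 14 dpt it was 1 in the main fit, 2 with DESeq2, 2 with no filter and 2 in one fit of all 18 libraries, and 0 to 1 when 1 library was left out. The interaction of 14 against 1 dpt gave 1 call with DESeq2 and 0 to 1 when 1 library was left out. The other counts between times were 0 in every setting tried. Over all loci, the calls at 7 dpt numbered 1547 of 13780 in the main fit and 2406 of 13780 with DESeq2. They numbered 1254 with limma-voom under TMM factors and 1337 on library sizes. With the filter at 1 CPM they were 2380 of 21953, and in one fit of all 18 libraries 2184 of 15132. At 1 dpt they were 1876 of 13483 in the main fit, 3107 of 21552 at 1 CPM and 3364 of 37569 with no filter.

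The labels and the paper name no pairing of the samples by replicate number, and 3 pairs per time cannot exclude one. Deviations of same-numbered 2,4-D and mock libraries correlated at -0.62 to -0.26 at 1 dpt, -0.24 to -0.07 at 7 dpt and -0.27 to 0.42 at 14 dpt. With a replicate block the count was 1 at 1 dpt (PIP2-6), 0 at 7 dpt and 0 at 14 dpt, and 0 in each contrast between times. Over all loci, 548 of 13483 were called with this block at 1 dpt and 307 of 13780 at 7 dpt. Without it these numbers were 1876 and 1547.

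Some log2 fold changes far from a call took the other sign. When 1 library was left out, PIP2-5 ran from -0.53 to 0.99 at 7 dpt and from -0.43 to 2.15 at 14 dpt. At 14 dpt PIP1-1 ran from -0.48 to 0.12, PIP1-3 from -0.35 to 0.22, PIP2-3 from -0.76 to 0.27 and PIP2-4 from -1.47 to 0.20. On library sizes alone at 14 dpt, PIP1-3 was at 0.032 and PIP2-3 at 0.030 in edgeR, and PIP1-1 at 0.069 in limma-voom, a setting that moved the median of all loci to 0.12. Where a library was left out, fewer samples stood behind the fit, and for the other settings the cause was not tested. Low counts limit PIP2-1 and PIP2-7 most, which had 140 and 138 counts over 18 libraries. Whether reads of PIP2-1 were dropped in counting was not tested.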
